A study of Equus caballus with 2 samples.

Results

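The genes described here encode the proteins of the cytosolic ribosome. They were chosen by symbol: RPL or RPS followed by a number, with at most 1 further letter A, X, Y or L and a further number, or RPLP0, RPLP1, RPLP2 or RPSA. Of the 21426 genes listed in both count matrices, 61 fitted. The set held 34 genes of the large subunit, 25 genes of the small subunit and 2 genes of the P-stalk, the arm of the large subunit that recruits elongation factors.

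A ribosome is built from ribosomal RNA and many proteins in fixed proportion, so cells make these proteins in balanced amounts, and their messages are among the most abundant in a growing cell. Most of these messages begin with a run of pyrimidines, the 5′ terminal oligopyrimidine (TOP) motif, through which the kinase mTOR and the RNA-binding protein LARP1 control their translation, while MYC raises transcription of many ribosomal protein genes. Transforming growth factor-β1 (TGF-β1) turns endometrial fibroblasts toward the synthesis of extracellular matrix, a process linked to endometrosis, the fibrosis of the equine endometrium.

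The data are single-cell RNA sequencing (10x Genomics 3′ chemistry) of equine endometrial fibroblasts from 4 mares, pooled in each library. The 2 libraries received medium with 0.1% bovine serum albumin for 24 h, 1 without further supplement (control) and 1 to which human recombinant TGF-β1 was added at 10 ng/ml. There was 1 library per group. The study assigned cells to mares by genotype, but the deposited files carry no such assignment, so no spread between mares is given and intervals cover counting error only. The effect of TGF-β1 and any other difference between these libraries cannot be told apart. Fibroblasts treated with MFGE8 were not analysed here.

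The control matrix held 4384 cell barcodes and the TGF-β1 matrix held 5124. Cells with at least 20000 unique molecular identifiers (UMIs, each 1 captured transcript), at least 3500 genes and under 4% mitochondrial UMIs were kept. These were 3865 control cells with 210497250 UMIs and 4513 TGF-β1 cells with 219731144 UMIs. The median kept cell had 50313 UMIs and 6529 genes in the control library, against 43142 UMIs and 6236 genes in the TGF-β1 library. The libraries shared 6 barcodes, 2 of them among kept cells.

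The fibroblast label was checked against markers. All 6 fibroblast markers were found, with summed levels of 20900 CPM (counts of a gene per 1000000 UMIs of the library's kept cells) in control and 21130 CPM in TGF-β1, and COL1A1 was the most abundant of them. COL1A1, COL1A2 and COL3A1 were higher in TGF-β1, while VIM, DCN and PDGFRB were lower. Of 5 epithelial markers 4 were found, summing to 133.7 CPM in control and 11.6 CPM in TGF-β1, with EPCAM and CDH1 near 0. KRT8 was the most abundant of them in control (114.3 CPM), while KRT7 was in TGF-β1 (7.045 CPM, against 4.483 CPM for KRT8). The 3 endothelial markers summed to 0.527 and 0.250 CPM, VWF being the most abundant and PECAM1 and CDH5 near 0. The 3 immune markers summed to 56.6 and 52.9 CPM, CD68 being the most abundant and PTPRC at 0.00475 CPM in control and 0 in TGF-β1. Of 11 cycling markers 10 were found, with summed levels of 57.1 and 32.6 CPM and TOP2A the most abundant. The part of the cells with KRT8 in the values below was not tested, and that of cycling cells is given with the depth strata.

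Not every ribosomal protein gene has a row in these files. Of 77 symbols of the standard mammalian set that fit the rule, 55 were listed and 22 were not. The absent ones were 15 large subunit symbols, among them RPL11, RPL19, RPL21, RPL35A and the stalk gene RPLP1, and 7 small subunit symbols, among them RPS15, RPS18, RPS27 and RPS28. The remaining 6 genes are copies outside that set (RPL3L, RPL7L1, RPL10L, RPL22L1, RPL26L1 and RPS27L). A further 5196 genes of the files carry an Ensembl identifier and no symbol, so an absent symbol does not mean an unmeasured gene. In the RefSeq gene table of the horse assembly TB-T2T, which is not the build used for the counts (EquCab3.0), 21 of the 22 absent symbols and all 61 listed ones are present.

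Together the 61 genes took 16.9% of control UMIs, with an exact (Clopper-Pearson) 95% interval of 16.86% to 16.87%. They took 14.9% of TGF-β1 UMIs, with an interval of 14.86% to 14.87%. The share was thus lower in the TGF-β1 library, at -0.18 on the log2 scale (here and below, TGF-β1 divided by control). In UMIs per cell, the median was 8665 in control and 6556 in TGF-β1.

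Large subunit genes went from 8.05% of UMIs in control to 6.99% in TGF-β1, a log2 ratio of -0.20. Small subunit genes went from 8.10% to 7.23%, a log2 ratio of -0.16. The P-stalk genes RPLP0 and RPLP2 went from 0.722% to 0.651%, a log2 ratio of -0.15. All 3 groups were lower after TGF-β1, and the large subunit had the lowest ratio of the summed counts.

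Ratios of single genes were counted and ranked where the mean level over both libraries reached 10 CPM, as it did for 58 of the 61 genes and for 7658 of all genes. Counts from the 3′ end of transcripts give 1 UMI per captured transcript, so they were not divided by transcript length. The median log2 ratio of the 58 ribosomal protein genes was -0.17, beside 0.01 for all 7658 genes. Their 25th and 75th percentiles were -0.30 and -0.09, beside -0.19 and 0.20 for all genes.

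Of the 58 genes, 53 were lower and 5 higher in TGF-β1, where 48.6% of all genes were lower and 51.4% higher. Past a 1.2-fold difference, 15 ribosomal protein genes were lower and 0 higher, beside 18.8% of all genes lower and 19.3% higher. Past 2-fold, the counts were 0 lower and 0 higher, beside 2.13% and 2.30% of all genes. The study used a 2-fold limit within each cell cluster, together with a limit on the false discovery rate. These counts over whole libraries are therefore not comparable with its own. The set thus shared a direction, while its differences were small.

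Other abundant genes were set beside these. In all, 141 genes had a mean level of 1000 CPM or more, and 50 of these were ribosomal protein genes. Of the 50, the TGF-β1 library was lower in 49, and the median log2 ratio was -0.19. Of the other 91 abundant genes, 48 (52.7%) were lower, with a median of -0.09. Past 1.2-fold, 14 of the 50 and 26 of the 91 were lower, which are nearly equal shares. Of those 26, 10 varied with the ribosomal protein genes over cells with a Spearman rho above 0.4 in both libraries, and 6 of the 10 have an identifier only.

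**Figure D1:**
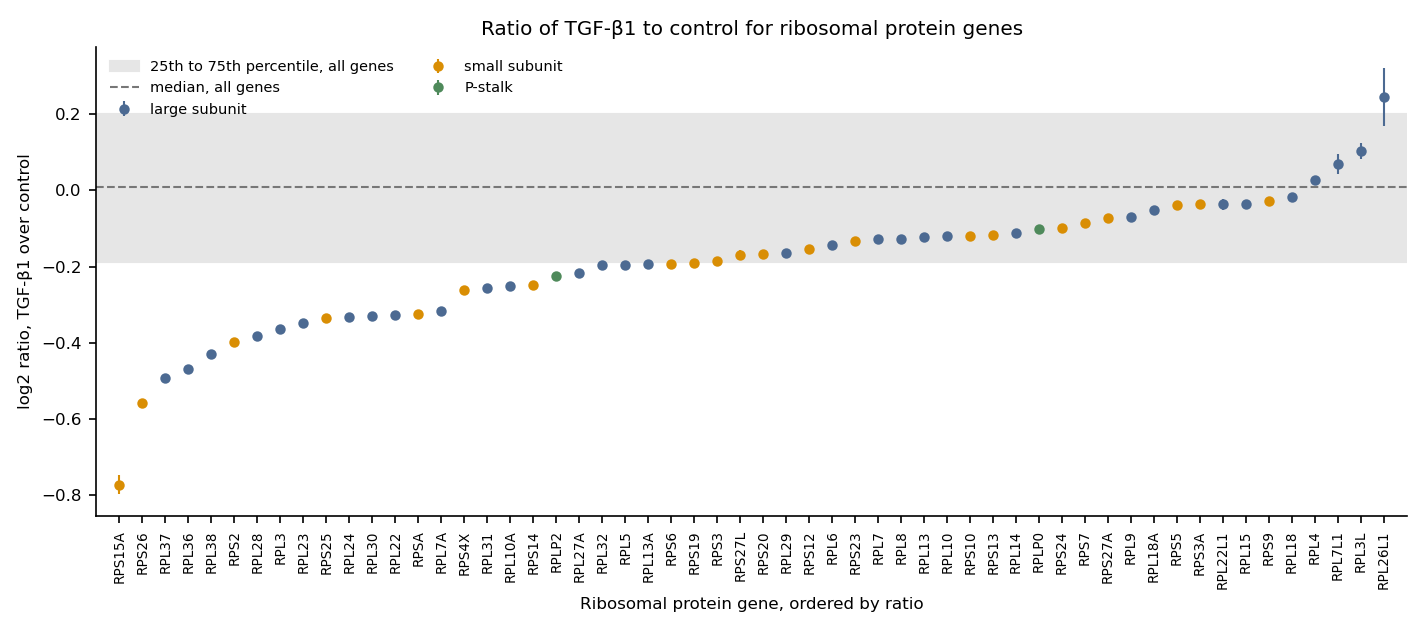
The log2 ratio (vertical axis, TGF-β1 divided by control) of 56 of the 58 ribosomal protein genes whose mean level reached 10 CPM, ordered by ratio and coloured by subunit, with exact binomial 95% intervals covering counting error only; the grey band spans the 25th to 75th percentile of all 7658 genes and the dashed line is their median. All but 4 of the genes drawn lie below 0, RPS15A is lowest at -0.77, and RPL26L1 is highest at 0.24; RPL4 falls below 0 when ribosomal protein genes are left out of the total.

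By level, 50 genes were at 1000 CPM or more, 7 between 100 and 1000 CPM, 1 between 10 and 100 CPM and 3 below 10 CPM. Ribosomal protein genes were 25 of the 50 and 44 of the 100 most abundant genes. The order of levels was nearly the same in both libraries, with a Spearman rho across the 58 genes of 0.98, while level and ratio were hardly related (rho 0.13). These rank relations are across genes, which are not independent replicates.

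RPS20 (ENSECAG00000012463), a protein of the head of the small subunit, was the most abundant, at 6721 CPM in control and 5987 CPM in TGF-β1, a log2 ratio of -0.17. RPS3A (ENSECAG00000009573) had 4766 and 4647 CPM, a log2 ratio of -0.04. RPS20 ranked first in both libraries, and RPS3A was lower by much less.

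RPS7 (ENSECAG00000020253), also of the small subunit, had 4789 and 4512 CPM, a log2 ratio of -0.09. RPL9 (ENSECAG00000016489), a large subunit protein near the base of the stalk, had 4634 and 4417 CPM, a log2 ratio of -0.07. These abundant genes were all lower in TGF-β1, by less than 1.2-fold.

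**Figure D2:**
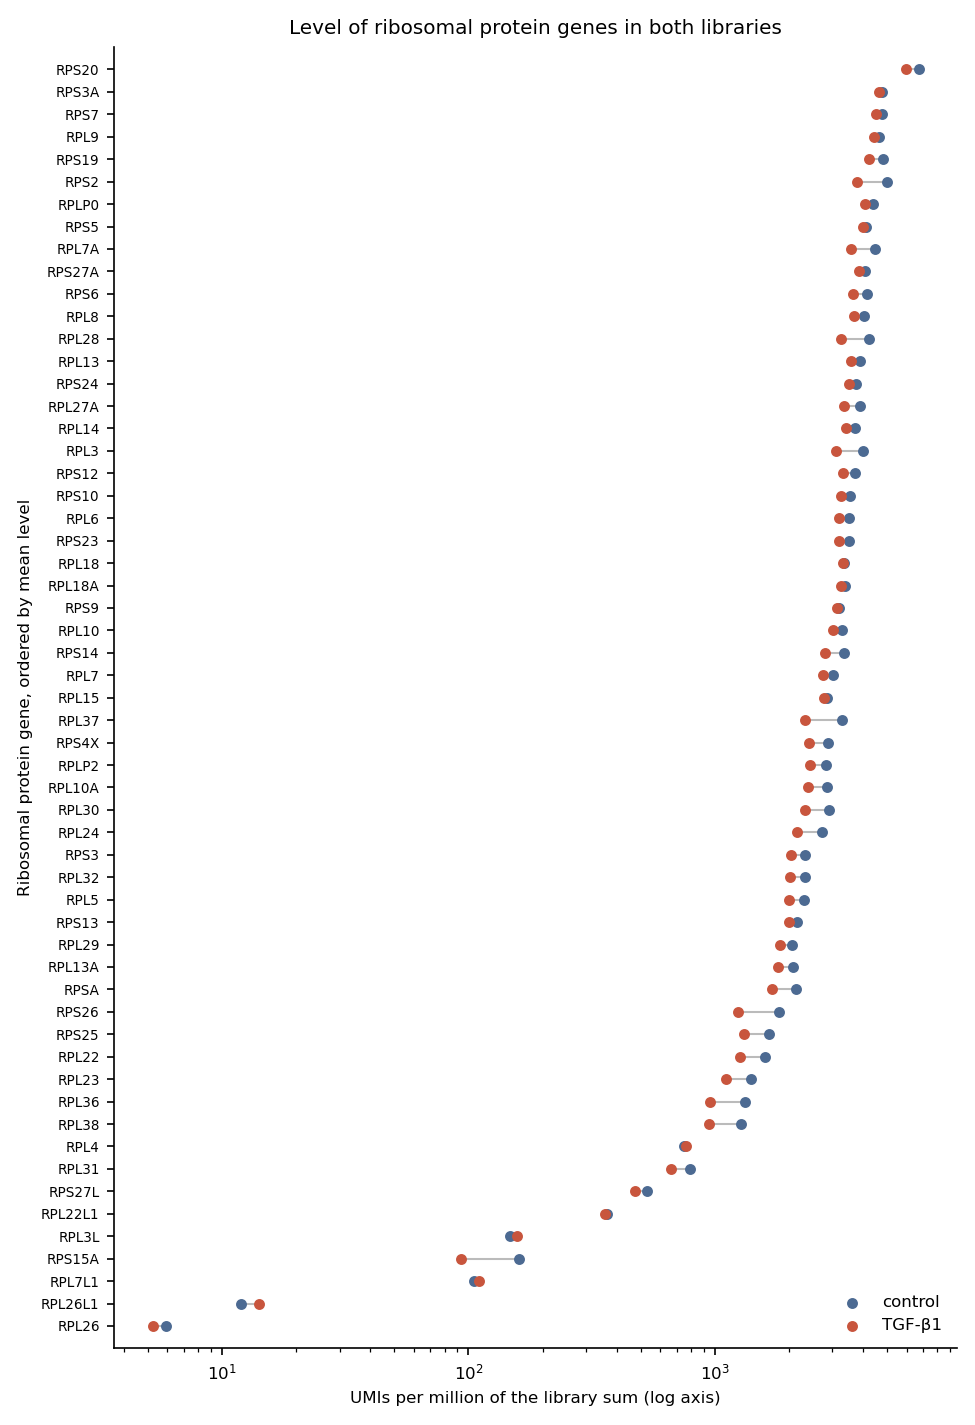
Level of ribosomal protein genes whose mean reached 1 CPM (2 such genes are not drawn) in the control and TGF-β1 libraries (horizontal log axis, CPM), 1 point per library, ordered by mean level. Most genes lie above 1000 CPM in both libraries, with the TGF-β1 point left of the control point, and RPL26 is lowest at 5.92 and 5.22 CPM.

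Among small subunit genes, RPS15A (ENSECAG00000019293), whose protein binds ribosomal RNA in the body of the subunit, had the lowest ratio. It had 159.8 CPM in control (33626 UMIs) and 93.5 CPM in TGF-β1 (20546 UMIs), a log2 ratio of -0.77 with a 95% interval of -0.80 to -0.75. The row of RPS15A also held far fewer UMIs than those of most other small subunit genes. At equal depth 95% of the control cells and 83.8% of those with TGF-β1 had a UMI of it. Whether this row holds all transcripts of the gene was not tested, so its level and ratio describe the row only.

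RPS26 (ENSECAG00000024268), which lies where messenger RNA leaves the ribosome, had 1827 CPM in control and 1240 CPM in TGF-β1, a log2 ratio of -0.56. RPS2 (ENSECAG00000009065), near the channel where messenger RNA enters, had 4998 and 3790 CPM, a log2 ratio of -0.40. RPS25 (ENSECAG00000020978), known for its part in initiation at internal ribosome entry sites, had 1660 and 1315 CPM, a log2 ratio of -0.34. These 3 were lower past 1.2-fold.

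RPSA (ENSECAG00000013062), a small subunit protein also described as a laminin receptor precursor, had 2137 CPM in control and 1707 CPM in TGF-β1, a log2 ratio of -0.32. With it, 5 of the 24 small subunit genes with a ratio were lower past 1.2-fold, a share near the 18.8% of all genes. The other 19 differed by less than 1.2-fold.

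Of the 32 large subunit genes with a ratio, 10 were lower past 1.2-fold, beside 18.8% of all genes. RPL37 (ENSECAG00000026905), a small zinc-binding protein, had 3269 CPM in control and 2325 CPM in TGF-β1, a log2 ratio of -0.49. RPL36 (ENSECAG00000036419) had 1328 and 959 CPM, a log2 ratio of -0.47. RPL38 (ENSECAG00000018554), known from mouse mutants for its part in skeletal patterning, had 1279 and 949 CPM, a log2 ratio of -0.43. These 3 had the lowest ratios of the large subunit.

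RPL28 (ENSECAG00000026938) had 4223 CPM in control and 3244 CPM in TGF-β1, a log2 ratio of -0.38. RPL3 (ENSECAG00000020665), which reaches toward the peptidyl transferase centre where amino acids are joined, had 4002 and 3111 CPM, a log2 ratio of -0.36. RPL23 (ENSECAG00000035053), at the face that meets the small subunit, had 1408 and 1106 CPM, a log2 ratio of -0.35. The 3 differ in level and little in ratio.

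RPL24 (ENSECAG00000024095) and RPL30 (ENSECAG00000021705) form bridges to the small subunit. RPL24 had 2723 CPM in control and 2162 CPM in TGF-β1, a log2 ratio of -0.33. RPL30 had 2910 and 2314 CPM, a log2 ratio of -0.33. Both bridge genes were lower by about the same ratio.

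RPL22 (ENSECAG00000025022), an RNA-binding protein with a role in lymphocyte development, had 1591 CPM in control and 1269 CPM in TGF-β1, a log2 ratio of -0.33. RPL7A (ENSECAG00000008548) had 4453 and 3575 CPM, a log2 ratio of -0.32. It completes the 15 genes past 1.2-fold. In all 6 strata of depth and cycling markers described below, 43 of the 58 genes were lower, these 15 among them. The strata hold the same cells as the ratios above, and the matching count over all genes is not given.

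The stalk genes moved unequally. RPLP0 (ENSECAG00000015816), the base of the stalk, had 4380 CPM in control and 4083 CPM in TGF-β1, a log2 ratio of -0.10. RPLP2 (ENSECAG00000000008), which forms the flexible arm with RPLP1, had 2837 and 2425 CPM, a log2 ratio of -0.23. Neither passed 1.2-fold, and RPLP1 had no row.

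The 5 genes that were higher in TGF-β1 differed by less than 1.2-fold. RPL4 (ENSECAG00000023179), which lines the tunnel through which the new protein leaves, had 747 CPM in control and 761 CPM in TGF-β1, a log2 ratio of 0.03, which became -0.01 when ribosomal protein genes were left out of the total.

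Of the higher genes, 3 were copies that resemble a standard ribosomal protein. RPL26L1 (ENSECAG00000000869) had 12.0 CPM in control (2519 UMIs) and 14.2 CPM in TGF-β1 (3114 UMIs), a log2 ratio of 0.24. RPL3L (ENSECAG00000020632), known as the form of RPL3 in striated muscle, had 146.8 and 157.6 CPM, a log2 ratio of 0.10. RPL7L1 (ENSECAG00000003113), which acts in ribosome assembly, had 105.3 and 110.4 CPM, a log2 ratio of 0.07. For RPL3L and RPL7L1 the partner moved the other way: RPL3 had a log2 ratio of -0.36, and RPL7 (ENSECAG00000009188) had 3012 and 2756.5 CPM, a log2 ratio of -0.13.

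RPL22L1 (ENSECAG00000018894) had 366 CPM in control and 357 CPM in TGF-β1, a log2 ratio of -0.04, against -0.33 for its partner RPL22. RPS27L (ENSECAG00000013269), a p53-inducible copy of RPS27, had 533 and 474 CPM, a log2 ratio of -0.17, and RPS27 itself had no row. RPS4X (ENSECAG00000010852) had 2888 and 2409 CPM, a log2 ratio of -0.26, and RPL10 (ENSECAG00000017154) had 3282 and 3019 CPM, a log2 ratio of -0.12. Where a copy and its partner both had a ratio, the copy's was higher in each case, RPL26 (below 10 CPM, given next) included.

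The 3 genes below 10 CPM were a standard large subunit gene, a standard small subunit gene and a copy. RPL26 (ENSECAG00000015757) had 1247 UMIs in control and 1147 in TGF-β1, or 5.92 and 5.22 CPM, a log2 ratio of -0.18 with an interval of -0.30 to -0.07, which is in none of the counts above. RPS29 (ENSECAG00000011782) had 0 and 1 UMI, and RPL10L (ENSECAG00000004957), known as a testis form, had 0 in both. The row of RPL26L1 thus held more UMIs than that of RPL26, and no ratio was taken for RPS29 and RPL10L.

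The lower share was next followed over cells. The median share per cell was 17.2% in control, with a standard deviation of 2.57 over cells and 5th and 95th percentiles of 12.9% and 21.2%. It was 15.1% in TGF-β1, with a standard deviation of 2.37 and 5th and 95th percentiles of 11.2% and 18.9%. Of the TGF-β1 cells, 3708 (82.2%) lay below the control median. The distributions overlapped widely, and the TGF-β1 distribution sat lower at each of these percentiles.

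Few cells had a low share. Cells under 10% were 30 (0.776%) in control and 83 (1.84%) in TGF-β1, and cells under 5% were 2 and 6. The lowest shares were 0.736% and 0.446%, and the highest 25.7% and 23.3%.

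**Figure D3:**
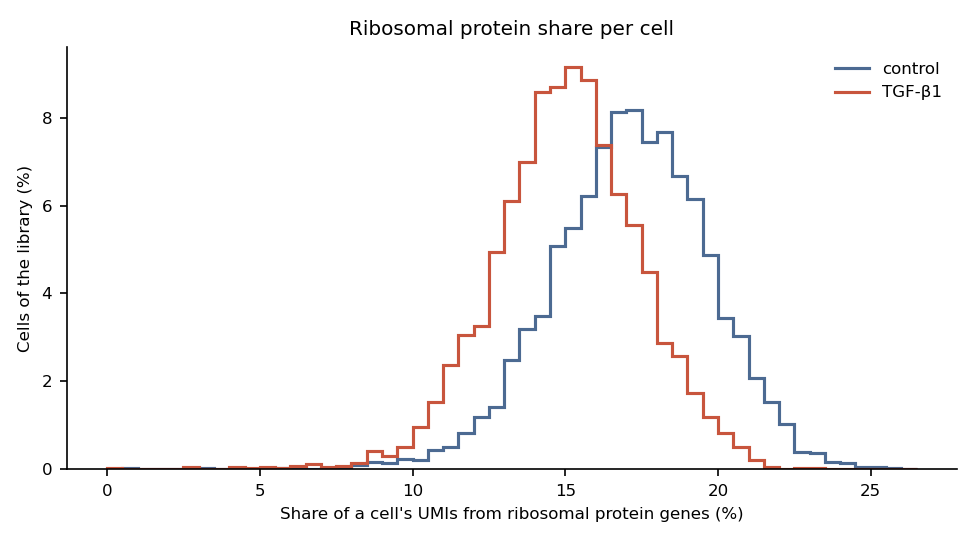
Share of each kept cell's UMIs from the 61 ribosomal protein genes (horizontal axis, %) against the percent of the library's cells in each bin (vertical axis), for control and TGF-β1. Each library has a single peak, and the TGF-β1 curve lies to the left, with medians of 17.2% and 15.1%.

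The share fell with the depth of a cell, and the libraries differed in depth. Over cells, the Spearman rho between share and total UMIs was -0.31 in control (3865 cells) and -0.26 in TGF-β1 (4513 cells), and with the number of genes it was -0.49 and -0.44. These points share the cell's total, so the values are descriptions only. The libraries were therefore also compared within strata of depth.

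Within strata of depth the difference kept its direction. For cells with 20000 to under 35000 UMIs the share was 17.9% in control (408 cells) and 15.7% in TGF-β1 (1004 cells), and 54 of the 58 genes were lower. For 35000 to under 50000 UMIs it was 17.7% (1492 cells) and 15.25% (2073 cells), with 53 genes lower. For 50000 to under 75000 UMIs it was 16.7% (1510 cells) and 14.3% (978 cells), with 54 genes lower. For 75000 UMIs and more it was 15.8% (455 cells) and 14.3% (458 cells), with 45 genes lower and 13 higher. The deepest stratum thus had the smallest difference in share, with a median log2 ratio of -0.15 over the genes, beside -0.20 in the stratum before it. Over all genes the medians in the 4 strata, from shallow to deep, were -0.00101, 0.0451, 0.0404 and -0.035.

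Cells with at least 3 cycling markers after reduction to equal depth were 78 in control and 75 in TGF-β1. Their share was 14.8% in control and 13.6% in TGF-β1, and 47 genes were lower and 11 higher, with a median log2 ratio of -0.12 beside -0.04 for all genes. In cells with fewer than 3 markers it was 16.9% and 14.9%, with 53 lower and 5 higher and a median of -0.17 beside 0.01 for all genes. The TGF-β1 share was lower in both sets of cells. Over all cells, the rho between share and number of cycling markers was -0.02 in control and -0.02 in TGF-β1.

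The spread of single genes over cells was measured after drawing 20000 UMIs from every cell. It is given as a coefficient of variation (CV) beyond counting: the part of the spread, relative to the mean, that Poisson counting does not give. Of the 61 genes, 56 had at least 100 CPM in both libraries. Their median CV was 0.179 in control and 0.190 in TGF-β1, beside 0.297 and 0.274 for all 1402 genes above that minimum. The 1402 genes were not matched in level: 50 ribosomal protein genes had a mean of at least 1000 CPM, beside 141 of all genes. The variance divided by the mean, which also depends on level, went the other way. Its median was 3.16 and 3.15 for the ribosomal protein genes, beside 1.45 and 1.40 for the 1402. At this depth 54 of the 56 in control and 53 in TGF-β1 were found in at least 99% of cells, beside 406 and 440 of the 1402 genes, and such detection depends on the level of a gene.

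By the mean of both libraries, RPL3L had the highest CV, 0.623 in control and 0.558 in TGF-β1, and its count at 20000 UMIs ran from 0 at the 5th percentile to 8 at the 95th in both libraries. RPS27L followed with 0.525 and 0.534. RPSA came next with 0.408 and 0.383, and its count had a 5th percentile, median and 95th percentile of 14, 44 and 72 in control and 12, 35 and 58 in TGF-β1. RPSA is the one standard gene of these 3, and the next standard gene by the mean of both libraries was RPS26, with 0.235 and 0.246.

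By the mean of both libraries, the lowest CVs belonged to RPLP2, with 0.155 in control and 0.154 in TGF-β1, RPS9 (ENSECAG00000020316), with 0.154 and 0.155, and RPL38, with 0.154 and 0.163. RPS9, a small subunit protein that helps keep decoding accurate, had 3187 and 3125 CPM. RPL38 was also among the 5 genes with the lowest ratios.

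The genes rose and fell together from cell to cell. For each gene, a Spearman rho was taken over cells with the summed UMIs of the other ribosomal protein genes. The median was 0.66 in control and 0.65 in TGF-β1, beside -0.01 and 0.01 over the 1346 other genes. All 56 were above 0 and 51 were above 0.2 in each library, while of the 1346 other genes 637 in control and 699 in TGF-β1 were above 0 and 79 and 84 above 0.2.

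The lowest values were those of RPS27L (0.025 in control and 0.0898 in TGF-β1), RPL3L (0.045 and 0.11), RPL7L1 (0.0461 and 0.0917) and RPL22L1 (0.125 and 0.101). All 4 are copies, and they are the 4 copies abundant enough to be included. The standard genes with the lowest values were RPL4, with 0.135 and 0.207, and RPL31 (ENSECAG00000024079), with 0.213 and 0.16. A weak rho in a gene with few counts is no finding. RPL4 and RPL31 had means of 754 and 729 CPM. In the cells reduced to equal depth, RPL4 had a mean of 14.8 UMIs per cell in control and 14.9 in TGF-β1. RPL31 had 15.9 and 13.6. Whether the number of counts at that depth accounts for the weak rho of these genes was not tested.

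**Figure D4:**
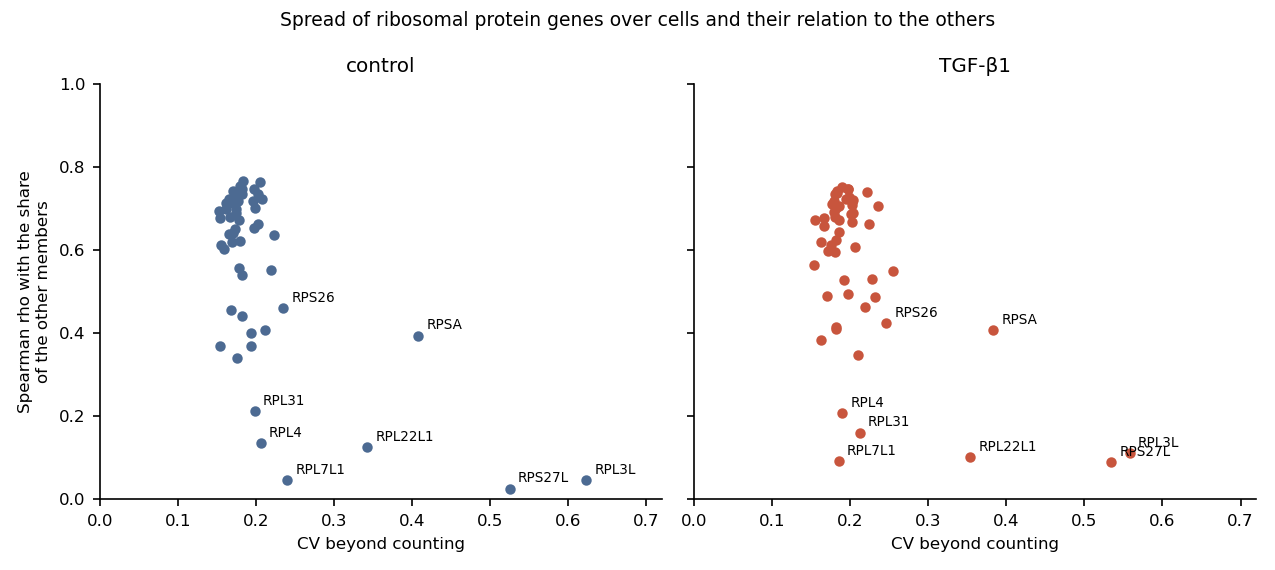
CV beyond counting (horizontal axis) against the Spearman rho with the summed UMIs of the other ribosomal protein genes (vertical axis) for 54 of the 56 genes, 1 point per gene, in control cells (left) and TGF-β1 cells (right) at 20000 UMIs each. Most genes form a group of low CV and high rho, while RPL3L, RPS27L, RPL22L1 and RPSA lie to the right.

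The subunits moved together over cells: the rho between large subunit (with P-stalk) and small subunit UMIs was 0.95 in control and 0.94 in TGF-β1. The small subunit made up a median of 48.0% of a control cell's ribosomal protein UMIs, with a standard deviation of 1.00, and 48.6% of a TGF-β1 cell's, with a standard deviation of 1.07. The balance between subunits varied far less over cells than the total did.

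Some genes outside the set varied with it. Among genes with a symbol, the 10 with the highest rho in both libraries included genes of ribosomal proteins under another form of symbol, and 3 genes of the elongation factor that brings amino acids to the ribosome and of the complex that recycles it. Genes with an identifier only, some with a higher rho, were not ranked here. FAU, a fusion of a ubiquitin-like protein with a small subunit protein, had 0.66 in control and 0.61 in TGF-β1. RACK1, a signalling scaffold on the small subunit, had 0.464 and 0.415.

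Both genes were also lower in TGF-β1. FAU had 2558 CPM in control and 2204 CPM in TGF-β1, a log2 ratio of -0.21. RACK1 had 1645 and 1518 CPM, a log2 ratio of -0.12. The list holds RPL36AL as well, which had no row.

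Among the elongation factors, EEF1A1 had a rho of 0.70 in control and 0.69 in TGF-β1, EEF1B2 had 0.66 and 0.67, and EEF1G had 0.57 and 0.54. BTF3, a subunit of the complex that meets new proteins at the ribosome, was also among these 10, with 0.46 and 0.43.

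A further 3 of those 10 encode neither a ribosomal protein nor a translation factor: B3GALT4, a glycosyltransferase gene, with a rho of 0.79 in control and 0.76 in TGF-β1, LMLN, a peptidase gene, with 0.73 and 0.72, and RASL11A, a small GTPase gene, with 0.69 and 0.66. B3GALT4 (ENSECAG00000052593) had 5391 CPM in control and 4730 CPM in TGF-β1, a log2 ratio of -0.19. LMLN (ENSECAG00000012354) had 3415 and 2651 CPM, a log2 ratio of -0.37. RASL11A (ENSECAG00000012858) had 3665 and 3002 CPM, a log2 ratio of -0.29. Their levels and ratios lay within the range of the ribosomal protein genes.

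In the RefSeq gene table of assembly TB-T2T, each of these 3 is the nearest protein-coding gene on 1 side of a ribosomal protein gene whose symbol has no row here: B3GALT4 lies beside RPS18, LMLN beside RPL35A and RASL11A beside RPL21. This look at neighbours was chosen after the values were seen. For the 21 absent symbols in that table, 38 neighbouring genes had a row in the files, and 5 of these had at least 1000 CPM in both libraries. Beside the 3 named, these were RUNDC1, next to RPL27, with 1417 and 1173 CPM and a rho of 0.43 and 0.39, and IGFBP2, an insulin-like growth factor binding protein gene next to RPL37A, with 2484 and 1569 CPM and a rho of 0.16 and 0.20. All 5 were lower in TGF-β1. Whether UMIs in these rows came from transcripts of the adjacent ribosomal protein gene was not tested, since neither reads nor the gene models used were at hand. The summed share given above covers the 61 listed rows only.

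The 10 genes with a symbol and the lowest rho were DST, ITGB1, MACF1, FNDC3B, ENAH, DPF2, CDK14, CDC42BPA, PPFIA1 and FN1, with values between -0.37 and -0.45. Cells with more UMIs in these genes had a lower ribosomal protein share. DST and MACF1 encode spectraplakins, ITGB1 an integrin chain and FN1 fibronectin. FN1 (ENSECAG00000000701) had 1934 CPM in control and 6087 CPM in TGF-β1, a log2 ratio of 1.65, and a rho of -0.37 in control and -0.44 in TGF-β1. DPF2 (ENSECAG00000001650) was the exception in direction, with 22660 and 16610 CPM, a log2 ratio of -0.45, while the other 9 were higher in TGF-β1.

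Lists of genes that work with the ribosome were set beside these values, each again for genes whose mean level reached 10 CPM. Of 7 elongation factors, 4 were lower and 3 higher, with 2 lower and 1 higher past 1.2-fold (18.8% and 19.3% over all genes) and a median log2 ratio of -0.24. EEF1A1 had 7104 CPM in control and 5330 CPM in TGF-β1, a log2 ratio of -0.41. EEF2, which moves the ribosome along the message, had 923 and 704 CPM, a log2 ratio of -0.39. These were the 2 factors that were lower past 1.2-fold.

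EEF1B2 had 2611 and 2188 CPM, a log2 ratio of -0.25, and EEF1G had 1257 and 1067 CPM, a log2 ratio of -0.24. EEF1D had 586 and 606 CPM, a log2 ratio of 0.05, EIF5A2 had 21.8 and 23.5 CPM, a log2 ratio of 0.11, and EEF1E1 had 62.6 and 79.0 CPM, a log2 ratio of 0.34. EEF1E1 encodes a component of the multi-synthetase complex, and the elongation factor gene EIF5A had no row.

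Of 6 other messages known to carry a TOP motif, 5 were lower and 1 higher (48.6% and 51.4% over all genes), with 2 lower past 1.2-fold (18.8%) and a median of -0.10. VIM, encoding the intermediate filament vimentin, had 4399 CPM in control and 2240 CPM in TGF-β1, a log2 ratio of -0.97. BTF3 had 1162 and 958 CPM, a log2 ratio of -0.28. TPT1, encoding a growth-related protein that binds tubulin and calcium, was the higher one, with 6521 and 7683 CPM, a log2 ratio of 0.24. NACA had no row.

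The other 3 TOP messages were lower by little. NPM1 had 720 CPM in control and 668 CPM in TGF-β1, a log2 ratio of -0.11, HNRNPA1 had 139.9 and 131 CPM, a log2 ratio of -0.09, and NAP1L1 had 457 and 434 CPM, a log2 ratio of -0.08.

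Of 33 initiation factor and poly(A)-binding protein genes, 20 were lower and 13 higher, with 8 lower and 3 higher past 1.2-fold (18.8% and 19.3% over all genes) and a median of -0.03, which ran from -0.10 to -0.02 over the alternatives. The lowest were EIF4B, with 156.3 CPM in control and 92.2 CPM in TGF-β1 (log2 ratio -0.76), EIF3D, with 254 and 174.5 CPM (-0.54), and EIF3H, with 122.7 and 87.4 CPM (-0.49). EIF4B assists the helicase that unwinds the message, and the EIF3 genes encode subunits of the factor that holds the small subunit ready. The highest were EIF4E2, with 63.2 and 81.9 CPM (0.37), EIF4E, with 82.6 and 106.3 CPM (0.36), and EIF5, with 511 and 641 CPM (0.33). EIF4E binds the cap of messages, and it moved in the opposite direction to EIF4B.

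Genes that make ribosomes were set beside these as well. Of 78 assembly genes, 40 were lower and 38 higher, with 8 lower and 6 higher past 1.2-fold (18.8% and 19.3% over all genes) and a median of 0.00, which ran from -0.10 to 0.01 over the alternatives. The lowest were NOP53, with 39.1 CPM in control and 20.7 CPM in TGF-β1 (log2 ratio -0.92), GNL2, with 96.95 and 72.1 CPM (-0.43), and DDX52, with 20.4 and 15.5 CPM (-0.39). The highest were RRP1B, with 19.7 and 30.7 CPM (0.64), UTP11, with 99.3 and 127.3 CPM (0.36), and IMP4, with 49.5 and 62.5 CPM (0.34).

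Of 9 genes for RNA polymerase I, which transcribes ribosomal RNA, and its factors, 7 were lower and 2 higher, with 1 lower and 1 higher past 1.2-fold (18.8% and 19.3% over all genes) and a median of -0.05. This median ran from -0.09 to -0.04 over the alternatives. The lowest were TAF1D, with 60.4 CPM in control and 47.6 CPM in TGF-β1 (log2 ratio -0.34), UBTF, with 42.1 and 38.0 CPM (-0.15), and RRN3, with 17.1 and 15.9 CPM (-0.10). The highest were POLR1G, with 22.2 and 32.6 CPM (0.55), POLR1E, with 17.2 and 19.5 CPM (0.18), and POLR1H, with 40.3 and 39.4 CPM (-0.03), whose interval included 0. These genes were measured at far lower levels than the ribosomal protein genes.

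The ribosome of mitochondria has its own nuclear-encoded proteins. Of the 64 such genes with a ratio, 39 were lower and 25 higher, with 8 lower and 1 higher past 1.2-fold (18.8% and 19.3% over all genes), and their median was -0.04, beside -0.17 for the cytosolic set. MRPL41, with 76.4 CPM in control and 49.9 CPM in TGF-β1 (log2 ratio -0.61), MRPL45, with 51.6 and 34.8 CPM (-0.57), and MRPS12, with 14.5 and 10.4 CPM (-0.48), were the lowest. MRPL2, with 25.4 and 33.5 CPM (0.40), MRPL37, with 53.6 and 63.7 CPM (0.25), and MRPS14, with 74.7 and 88.5 CPM (0.24), were the highest. When a mean of 100 CPM was required, the median of the mitochondrial list was 0.06.

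Of 15 genes of the mTOR and MYC pathways, 10 were higher and 5 lower, with 2 higher and 3 lower past 1.2-fold (19.3% and 18.8% over all genes) and a median of 0.09, which ran from 0.02 to 0.20 over the alternatives. MYC had 30.4 CPM in control (6392 UMIs) and 17.0 CPM in TGF-β1 (3741 UMIs), a log2 ratio of -0.83. MXI1 and MXD1, which compete with MYC for its partner MAX, had 15.5 and 26.1 CPM (0.75) and 11.7 and 16.01 CPM (0.45). MYC was thus lower and MXI1 and MXD1 higher, at levels far below those of the ribosomal proteins. All 3 were named for having the lowest or highest ratios of the list. The list also holds MXD3 and MXD4, whose values are not given, so no pattern of MYC against its opponents is drawn.

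In the same list, RPS6KB2, encoding a kinase of ribosomal protein S6, had 21.3 CPM in control and 15.6 CPM in TGF-β1 (log2 ratio -0.45), AKT1S1, an inhibitor of mTOR, had 32.1 and 26.4 CPM (-0.28), and LARP4, which binds the poly(A) tail, had 40.3 and 46.5 CPM (0.21). In each of the 8 lists, 0 genes passed 2-fold. Whether any of these differences had a part in the level of the ribosomal protein genes was not tested.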

How the data were processed

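The deposited matrices hold raw counts, the UMIs of each gene under each barcode. The authors made them in Cell Ranger with the EquCab3.0 genome and Ensembl gene models. The submitters' processing notes name version 7.1.0 and the file headers 8.0.1. The notes also name Seurat 5 and edgeR 4.2.2, which were not used here. Whole numbers of at least 1 were found in every matrix entry. Kept cells had 20000 UMIs or more, 3500 genes or more and under 4% of UMIs in the 13 mitochondrial genes (88.2% of control and 88.1% of TGF-β1 barcodes), and doublets were not removed.

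UMIs were summed over kept cells of each library and given as CPM. Ratios are TGF-β1 over control with no pseudocount, with exact binomial 95% intervals, none was taken where both libraries had 3 UMIs or fewer, and counts and medians used those with a mean of at least 10 CPM. With 1 library per group no test was made. Spread and rank relations over cells used cells reduced at random to 20000 UMIs, and the genes compared had at least 100 CPM in both libraries. In the rank relation a gene was left out of the sum it was compared with. The calculation of ratios was checked on simulated Poisson counts, where 94.6% of the 95% intervals held the true value. The simulation had no variation between cells, mares or libraries, so it checks the calculation only. Python 3.11.15, numpy 2.4.6, scipy 1.17.1, pandas 2.3.3 and matplotlib 3.10.9 were used.

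Members and lists were chosen with earlier results of these data known. Genes named were the 5 most abundant, the 5 highest and 5 lowest ratios, all past 1.2-fold, copies with their partners, the 3 highest and 3 lowest CVs and those with 3 UMIs or fewer; from lists of up to 10 genes all, and from longer ones the 3 highest and 3 lowest ratios; and the 10 highest and 10 lowest rho outside the set among genes with a symbol, ranked on the value nearer 0. Some genes this rule selects were not used here. RPLP0, RPL26, RPL31 and the neighbours RUNDC1 and IGFBP2 were named after their values were seen. Alternatives changed the cells kept, the weight of cells, the total, the scaling, the minimum level and the drawn depth. RefSeq's TB-T2T table served for symbols and neighbours only.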

Additional observations from a re-analysis of the deposited data

How the results depend on the processing

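The share of UMIs in control and TGF-β1 was 16.7% and 14.7% with all deposited barcodes, 17.0% and 14.9% without cells above the 98th percentile of UMIs, 16.9% and 14.8% with a UMI minimum of 10000, 16.8% and 14.9% with a mitochondrial limit of 6%, 16.9% and 14.9% without cells with 3 or more cycling markers, 17.1% and 15.0% as a mean of per-cell CPM, and 17.1% and 15.1% with mitochondrial genes left out of the total. Removing cells with a share under 5%, an alternative chosen after seeing the data, gave 16.9% and 14.9%. The TGF-β1 share was lower in each of these, and each move lay outside the narrow counting interval except that of control without cells under 5%.

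The median log2 ratio of the members was -0.18 without cells above the 98th percentile, -0.18 as a mean of per-cell CPM and -0.20 with member genes left out of the total. In every alternative the count of members lower past 1.2-fold was between 15 and 20, and 0 were higher past 1.2-fold. The count of 20 came with member genes left out of the total, a change of scale that lowers the ratio of every gene alike. The matching shares over all genes are not given for the alternatives. Of 580 ratios of single members over 10 alternatives, 361 stayed inside the counting interval, 218 moved outside it with the same sign, and 1 reversed: RPL4 was at -0.01 with member genes left out of the total. 53 members were lower in every one of these alternatives and 4 were higher.

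Of 95 list medians, 82 stayed within the main interval, 12 moved and 1 reversed: that of the mitochondrial ribosomal proteins was 0.06 at a mean of at least 100 CPM. The cause was not tested for any of these. The median of the assembly list lay between -0.10 and 0.01, that of the initiation list between -0.10 and -0.02, and that of the mTOR and MYC list between 0.02 and 0.20. No gene of the RNA polymerase I list reached a mean of 100 CPM, so that alternative gave no value there. The median CV was 0.181 in control at 10000 UMIs and without reduction, and 0.190 and 0.192 in TGF-β1.

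No paired analysis was possible because the deposited files do not say which of the 4 pooled mares a cell came from, an assignment the study made by genotype and which needs the reads. With 1 library per group, none was left out. Counting error is small at this depth, so it limits the values of genes such as RPL26L1, RPL26 and MXD1 and not those of the abundant members. Rows of the files without a symbol, and symbols without a row, limit how completely the ribosomal protein genes were counted. The rows of the standard genes RPS15A, RPL26 and RPS29 held few UMIs beside most others. Whether they hold all transcripts of these genes was not tested.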

Other observations

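Barcodes that were not kept had a lower ribosomal protein share, with a median of 11.1% over 519 control barcodes and 3.55% over 611 TGF-β1 barcodes. The kept cells with a share under 5% had a median of 3.67% mitochondrial UMIs in control (2 cells) and 2.65% in TGF-β1 (6 cells), beside 1.47% and 1.21% in the other cells.

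Among genes with at least 100 CPM in both libraries, 44 ribosomal protein genes, 10 other genes with a symbol and 15 genes with an identifier only had a rho above 0.4 with the ribosomal protein share in both libraries. The 15 took 4.68% of control and 3.90% of TGF-β1 UMIs, and all 15 were lower in TGF-β1, with a median log2 ratio of -0.23. Of the 91 abundant genes outside the ribosomal protein set, 52.7% were lower, beside 48.6% of all 7658 genes. The 15 were selected by their rho, and the 44 and the 10 selected with them were all lower too. The most abundant of the 15, ENSECAG00000008542, had 10920 CPM in control and 9552 CPM in TGF-β1 and a rho of 0.76 and 0.70. ENSECAG00000010622 had 4061 and 3877 CPM and a rho of 0.73 and 0.72. Both were picked after their values were seen, and the files do not pair these identifiers with a name.

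The symbol CD14 stands on 2 rows, with 13.99 and 0 CPM in control and 9.75 and 0.00455 CPM in TGF-β1, and both were summed in the immune markers.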
